A study of Mus musculus with 6 samples.

Results

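The genes described here encode the proteasome, the barrel-shaped protease that degrades ubiquitin-tagged proteins, and the question was whether its interferon-inducible subunits differed between R-treated and vehicle-treated bone marrow cultures separately from its constitutive ones. A list of 39 subunit, activator and assembly genes, named by their place in the complex, was matched by symbol through the GENCODE annotation of mouse build GRCm38, and each of the 39 was found among the 49328 genes in the table. The R libraries came from cells treated in culture with a compound labelled R at 0.5 um (unit as labelled), against cells given the vehicle DMSO, with 3 libraries in each group. In both groups the cells were labelled as mesenchymal stromal cells (MSCs), were released by digestion of whole bone marrow from CB6F1 mice with acute graft-versus-host disease (aGVHD), and were cultured in DMEM (high glucose) with FBS and penicillin-streptomycin. The sources used here do not say what R is, how long it was given, how old the mice were or whether the replicates are separate animals, so p-values measure only the spread between these libraries, which may be technical. CB6F1 is an F1 hybrid laboratory strain, and aGVHD is the attack of transplanted donor immune cells on the recipient's tissues.

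The proteasome core, the 20S particle, is a stack of rings built from alpha subunits, which form the outer gates, and beta subunits, of which Psmb5, Psmb6 and Psmb7 encode the constitutive proteolytic ones. Interferon-gamma induces alternative proteolytic subunits that take their places in newly assembled particles: Psmb8 replaces Psmb5, Psmb9 replaces Psmb6 and Psmb10 replaces Psmb7. The resulting immunoproteasome is known for producing peptides for MHC class I molecules and is abundant in leukocytes. The 19S cap, with its ATPases (Psmc genes) and its receptors, scaffold and deubiquitinase (Psmd genes), feeds tagged proteins into the core, while the PA28 ring of Psme1 and Psme2, also interferon-inducible, opens the core without ubiquitin.

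The library depth, estimated from the steps of low values, was 17070000 to 21760000 reads, and 11862 genes reached 1 FPKM in 3 or more libraries and were tested. FPKM is a read count scaled to gene length and library size. All 39 members passed that filter, with an estimated 399 to 9107 reads each per library. Changes were tested in limma on log2(FPKM + 1), with Benjamini-Hochberg adjustment over the 11862 genes and a threshold of 0.05. Of the genes tested, 6.82% passed, 4.43% being lower and 2.39% higher in R, and the median log2 change was -0.0037. Although the cells were labelled as stromal, macrophage marker transcripts were far more abundant than stromal ones in both groups: 21 listed macrophage and monocyte markers, none of them at 0, summed to 13800 to 17110 FPKM in R libraries, against 16810 to 22470 FPKM in vehicle libraries. Of 14 stromal markers, which summed to 1002 to 1424 FPKM in R libraries, against 800 to 1135 FPKM in vehicle libraries, 11 were high enough to be tested. Thy1, Nt5e and Lepr were not. Among the tested ones, Eng averaged 34.5 FPKM in R and 47.7 FPKM in vehicle, and Cd44 59.6 FPKM in R and 56.7 FPKM in vehicle. Lyz2, a macrophage lysozyme and the most abundant of the 21, averaged 9453 ± 1167 FPKM in R and 11070 ± 1592 FPKM in vehicle (SD, n = 3 each). Pdgfra, a receptor among the lower tested stromal markers, averaged 3.84 ± 2.20 FPKM in R and 5.83 ± 0.269 FPKM in vehicle. Col1a1 and Itgb1 were the most abundant stromal markers. Col1a1 averaged 479 ± 136 FPKM in R and 214 ± 75.7 FPKM in vehicle, and Itgb1 305 ± 12.5 FPKM in R and 233 ± 24.1 FPKM in vehicle. Of the stromal markers Ly6a was lower in R (limma, adjusted p = 0.015), but it no longer passed when vehicle replicate 2 was left out (adjusted p = 0.053) or low genes were kept in the fit (adjusted p = 0.065). None was called higher. The groups of 4 of the 11 tested stromal markers did not overlap, with R higher, beside 13.9% of all genes tested. Among the 4 were Col1a1 (limma, log2 change 1.19, adjusted p = 0.079) and Pdgfrb (limma, log2 change 0.65, adjusted p = 0.088). Pdgfrb passed without R replicate 1 (limma, adjusted p = 0.039) and with the replicate number as a block (adjusted p = 0.024).

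All 5 interferon-inducible members were lower in R, whereas 0 of the 34 other members passed the threshold in either direction in limma and 3 had an unadjusted p under 0.05. The 5 calls were 3 catalytic subunits and 2 PA28 subunits, against a background of 4.43% of genes called lower. Their median log2 change was -1.83, beside -0.05 for the 34 others. The upper 95% limit nearest to 0 among the 5, that of Psme1, was -0.88, and the lowest limit among the 34 others, that of Psma5, was -0.68. Among the 34, the sign of 18 turned under at least 1 alternative processing or without 1 library. In bulk cultures fewer cells of a type and less RNA per cell cannot be told apart.

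Psmb8, also called LMP7, encodes the inducible chymotrypsin-like subunit (ENSMUSG00000024338, chromosome 17, 34197721 to 34201454, plus strand). It had 18.97, 24.2 and 15.8 FPKM in R replicates 1 to 3, against 81.2, 71.6 and 63.3 FPKM in vehicle replicates 1 to 3. Every R library lay well below every vehicle library. The mean was 19.7 ± 4.23 FPKM in R and 72.0 ± 8.97 FPKM in vehicle (SD, n = 3 each), which puts R at 27.3% of vehicle (log2 change -1.83, SE 0.16; limma, adjusted p = 0.0012).

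Psmb9, also called LMP2, encodes the subunit that replaces the constitutive Psmb6 protein (ENSMUSG00000096727, chromosome 17, 34181987 to 34187764, minus strand). It was the lowest of the inducible members, with 8.16, 8.74 and 6.03 FPKM in R, against 35.3, 32.4 and 23.5 FPKM in vehicle. The groups did not overlap, and vehicle replicate 3 was the lowest of its group. R stood at 25.2% of vehicle (log2 change -1.85, SE 0.18; limma, adjusted p = 0.0021).

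Psmb10, also called MECL-1, encodes the inducible trypsin-like subunit (ENSMUSG00000031897, chromosome 8, 105935735 to 105938444, minus strand). It had 25.5, 28.1 and 17.7 FPKM in R, against 100.6, 84.2 and 76.6 FPKM in vehicle. Again the groups were far apart, with R at 27.3% of vehicle (log2 change -1.85, SE 0.18; limma, adjusted p = 0.0021). The 3 catalytic subunits thus had log2 changes from -1.85 to -1.83. With 5 FPKM added instead of 1 before the logarithm, they were -1.65 for Psmb8, -1.475 for Psmb9 and -1.69 for Psmb10. Their closeness therefore depends on the added constant. Psmb10 lies on another chromosome than the neighbours Psmb8 and Psmb9.

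Psme1 and Psme2, the alpha and beta subunits of the PA28 activator, also fell, with log2 changes nearer to 0. Psme1 (ENSMUSG00000022216, chromosome 14, 55578123 to 55581529, plus strand) had 32.7, 34.01 and 24.7 FPKM in R, against 83.3, 71.3 and 63.4 FPKM in vehicle. R was at 41.9% of vehicle (log2 change -1.23, SE 0.15; limma, adjusted p = 0.005). Psme2 (ENSMUSG00000079197, chromosome 14, 55587441 to 55591113, minus strand) had 18.2, 19.4 and 13.4 FPKM in R, against 58.8, 43.4 and 50.5 FPKM in vehicle. Neither gene had an R library as high as its lowest vehicle library, and Psme2 stood at 33.3% of vehicle (log2 change -1.54, SE 0.16; limma, adjusted p = 0.0028). Whether the PA28 and catalytic changes differ from each other was not tested.

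The value of Psme2 is uncertain because the annotation holds a copy of it on another chromosome, Psme2b (chromosome 11, 48945354 to 48946190), whose reads the counting could have split with it. Psme2b had 44.9, 61.8 and 42.8 FPKM in R, against 117, 115.7 and 87.1 FPKM in vehicle (log2 change -1.09, SE 0.17; limma, adjusted p = 0.015). Its call ended without R replicate 1 or 3 or vehicle replicate 1 or 2 (limma, adjusted p = 0.051 to 0.059) and when low genes were kept in the fit (adjusted p = 0.058). Summed over both genes, the level was 63.1, 81.2 and 56.2 FPKM in R and 176, 159 and 138 FPKM in vehicle, again without overlap.

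**Figure D1:**
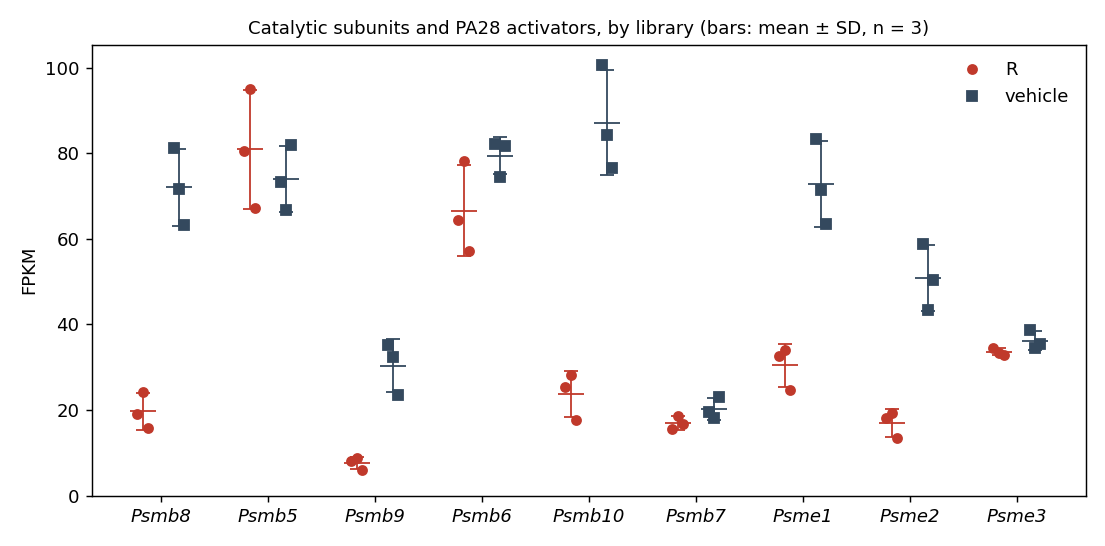
FPKM (vertical axis, from 0) of the catalytic subunits, each inducible one left of the constitutive one it replaces, and of the PA28 genes Psme1, Psme2 and Psme3. Each point is a library, R as circles and vehicle as squares, with horizontal and vertical bars for the mean and SD of 3 libraries; Psmb8, Psmb9, Psmb10, Psme1 and Psme2 separate the groups, and Psmb5, Psmb6 and Psmb7 do not.

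The start regions of 4 of these genes are shown to let the sequence be read beside the fall of Psmb8, Psmb9 and Psme1 and the constitutive level of Psmb5. They are RefSeq windows of 300 bases on GRCm38.p6, running from 250 bases before the annotated start, 5′ to 3′ on the strand of the gene. These RefSeq starts lie inside the genes as GENCODE annotates them, by 474 bases for Psmb8, 434 for Psmb9, 371 for Psme1 and 27 for Psmb5, and which start these cells used is not known from the data. Capitals mark matches on either strand to 4 short motifs that were searched: GAAA and GAAA with 2 bases of any kind between them, a core of the interferon-stimulated response element bound by interferon regulatory factors; TTCNNNGAA, a core of the GAS element bound by STAT dimers; TGACNNNGC, a core of the antioxidant response element bound by NRF factors; and GGGCGG, the GC box bound by SP1.
Psmb8, chr17:34197945-34198244, plus strand: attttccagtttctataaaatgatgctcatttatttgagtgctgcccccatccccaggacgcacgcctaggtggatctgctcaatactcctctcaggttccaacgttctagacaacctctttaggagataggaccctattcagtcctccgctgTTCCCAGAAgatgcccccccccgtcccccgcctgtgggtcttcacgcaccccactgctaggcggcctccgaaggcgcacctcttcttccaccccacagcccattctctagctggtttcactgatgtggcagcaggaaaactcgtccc
Psmb9, chr17:34187281-34187580, minus strand: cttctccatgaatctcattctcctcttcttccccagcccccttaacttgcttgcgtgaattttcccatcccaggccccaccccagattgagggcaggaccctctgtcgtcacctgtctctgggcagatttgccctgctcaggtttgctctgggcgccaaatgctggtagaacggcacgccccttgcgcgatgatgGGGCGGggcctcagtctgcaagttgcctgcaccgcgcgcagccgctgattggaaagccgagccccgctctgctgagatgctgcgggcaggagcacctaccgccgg
Psme1, chr14:55578244-55578543, plus strand: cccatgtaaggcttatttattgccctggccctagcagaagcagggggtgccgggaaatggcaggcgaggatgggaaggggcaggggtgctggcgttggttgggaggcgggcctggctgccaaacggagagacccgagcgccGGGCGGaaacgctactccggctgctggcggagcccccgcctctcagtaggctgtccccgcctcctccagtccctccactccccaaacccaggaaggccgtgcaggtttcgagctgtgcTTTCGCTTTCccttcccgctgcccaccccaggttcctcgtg
Psmb5, chr14:54617946-54618245, minus strand: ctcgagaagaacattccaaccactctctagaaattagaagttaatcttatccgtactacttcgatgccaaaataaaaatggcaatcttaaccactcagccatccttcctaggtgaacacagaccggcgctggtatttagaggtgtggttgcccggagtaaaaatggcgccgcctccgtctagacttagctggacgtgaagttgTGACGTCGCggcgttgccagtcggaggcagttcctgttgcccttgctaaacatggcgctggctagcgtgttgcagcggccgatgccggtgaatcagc

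The window of Psmb8 held a GAS-like match 97 bases before the RefSeq start, and that of Psme1 held an interferon-response-like match beginning 9 bases after it together with a GC box 109 bases before it. The window of Psmb9 held a GC box 55 bases before the start and no match to the other 3 motifs. That window shares 275 of its 300 bases with the window of Tap1, the peptide transporter gene that is read in the opposite direction. The window of Psmb5 held an antioxidant-response-like match 47 bases before the start. Of the 39 members, 33 had at least 1 window and were counted once each, and Psmb1, Psmb2, Psmb7, Psmc3, Psmd3 and Psmd7 had none in the table used. The interferon-response core was found in 3 of the 33 (Psmb3, Psmd4 and Psme1), beside 3.44% of all 32851 windows, and the GAS core in 2 (Psmb8 and Psmd2), beside 8.3% of all windows. The antioxidant core was found in 5 members, Psmb5, Psmb6, Psmc6, Psmd12 and Psme4, beside 12.4% of all windows. The GC box was found in 20 of the 33, or 60.6%, beside 35.7% of all windows. A match is a description of these letters and says nothing about binding, and a window without one may be near an element outside it.

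None of the constitutive catalytic subunits passed the threshold, and their groups overlapped in all 3. Psmb5, the constitutive chymotrypsin-like subunit (chromosome 14, 54614119 to 54618022), had 80.6, 95.003 and 67.2 FPKM in R, against 73.2, 66.8 and 82.0 FPKM in vehicle. Its log2 change was 0.12 with a 95% interval from -0.22 to 0.45 (limma, adjusted p = 0.67), and the sign turned without R replicate 2 (log2 change -0.0024). Psmb6, the constitutive caspase-like subunit (chromosome 11, 70525367 to 70527858), had 64.3, 78.1 and 57.2 FPKM in R, against 82.1, 74.4 and 81.6 FPKM in vehicle. Its log2 change was -0.26, with an interval from -0.55 to 0.03. Psmb7, the constitutive trypsin-like subunit (chromosome 2, 38588036 to 38644087), had 15.6, 18.7 and 16.8 FPKM in R, against 19.5, 18.1 and 23.1 FPKM in vehicle, a log2 change of -0.23 with an interval from -0.50 to 0.04. Intervals of this width leave room for falls of the size of the point estimates, but not for falls of the size seen in Psmb8, Psmb9 and Psmb10.

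The balance between inducible and constitutive subunits was measured within each library as a ratio of FPKM, which does not depend on how libraries are scaled. Psmb8 over Psmb5 was 0.235, 0.255 and 0.235 in R, against 1.11, 1.07 and 0.771 in vehicle. Transcripts of the pair were thus at similar FPKM in vehicle, while in R the inducible member was well below the constitutive one. Psmb9 over Psmb6 was 0.127, 0.112 and 0.105 in R, against 0.43, 0.435 and 0.288 in vehicle. Psmb10 over Psmb7 was 1.64, 1.51 and 1.05 in R, against 5.17, 4.66 and 3.32 in vehicle. In FPKM, Psmb10 thus exceeded its partner in all 6 libraries. In estimated reads, which are not scaled to gene length, Psmb10 was below Psmb7 in each R library (944, 863 and 546, against 1158, 1149 and 1041). It was above Psmb7 in each vehicle library (2928, 2688 and 2616, against 1136, 1158 and 1581).

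Each of the 3 ratios was lower in 3 of 3 R libraries than in any vehicle library, by 4.02 times for Psmb8/Psmb5, 3.3 times for Psmb9/Psmb6 and 3.14 times for Psmb10/Psmb7 on the geometric mean. On the log2 scale, without a pseudocount, the R minus vehicle differences were -2.01, -1.72 and -1.65. The exact two-sided permutation test over libraries gave p = 0.1 for each, and 0.1 after adjustment over the 3 ratios, which is the smallest p that 3 against 3 libraries allow, so this test could not pass the threshold.

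**Figure D2:**
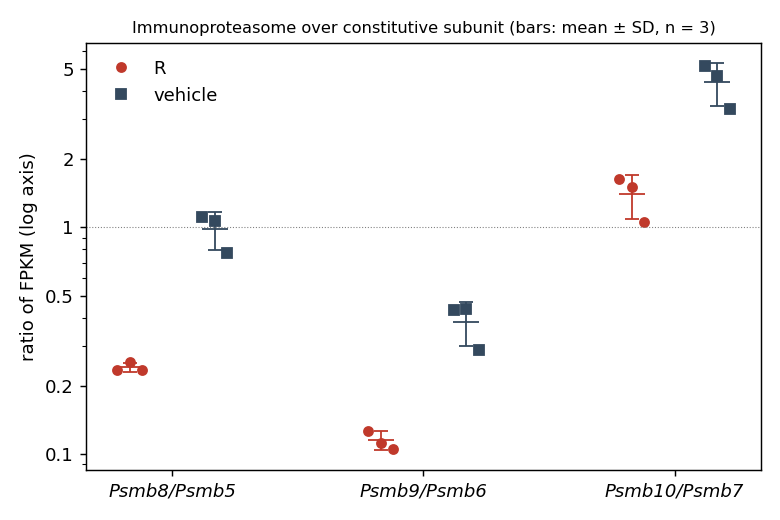
Ratio of FPKM of each inducible catalytic subunit to the constitutive subunit it replaces (log axis), with a point per library, R as circles and vehicle as squares, and bars for mean and SD of 3 libraries. All R points lie below all vehicle points in each ratio; the dotted line marks equal FPKM.

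The height of a ratio, unlike its difference between groups, rests on the exon lengths behind FPKM. In the annotation used here these were 3381 bases for Psmb8 and 899 for Psmb5, and 3660 for Psmb9 and 1872 for Psmb6. They were 1705 for Psmb10 and 3421 for Psmb7, all annotated transcripts included. With that limit, inducible subunits made up 24.7%, 24.1% and 21.9% of the summed FPKM of the 6 catalytic genes in R, against 55.4%, 54.2% and 46.7% in vehicle. The mean share was 23.6% ± 1.49 in R and 52.1% ± 4.73 in vehicle (SD, n = 3 each; exact permutation p = 0.1, the smallest possible). The summed level of each pair was also lower in R. Psmb8 and Psmb5 together had 99.6, 119 and 83.0 FPKM in R, against 154, 138 and 145 FPKM in vehicle. Psmb9 and Psmb6 together had 63.2 to 86.9 FPKM in R libraries, against 105 to 117 FPKM in vehicle libraries, and Psmb10 and Psmb7 together 34.6 to 46.8 FPKM in R libraries, against 99.7 to 120.1 FPKM in vehicle libraries.

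Of the other core subunits none passed the threshold. Among the 7 alpha subunits, which form the gated outer rings, 6 had a negative log2 change and 1 a positive one, with a median of -0.14. Psma5 had the most negative, at 50.7, 55.1 and 42.2 FPKM in R, against 64.4, 58.3 and 70.7 FPKM in vehicle. Its groups did not overlap, and its log2 change of -0.38 had an SE of 0.12 (limma, adjusted p = 0.12, and from 0.072 up under the alternatives tried). Psma4 followed with -0.27 (adjusted p = 0.19) and Psma1, Psma6 and Psma2 with -0.14, -0.14 and -0.12, while Psma7 had -0.06 and Psma3 0.05. Psma6 was the most abundant alpha gene, with 75.0 to 95.5 FPKM in R libraries, against 92.8 to 95.2 FPKM in vehicle libraries.

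The 4 beta subunits without proteolytic activity, which build the inner rings, had log2 changes of -0.29 for Psmb2, -0.14 for Psmb4, -0.09 for Psmb1 and 0.01 for Psmb3. All 4 had overlapping groups. Psmb4 was the most abundant, with 72.7 to 103 FPKM in R libraries, against 91.0 to 100.1 FPKM in vehicle libraries, and Psmb1 the least, with 23.3 to 31.8 FPKM in R libraries, against 27.9 to 31.6 FPKM in vehicle libraries. Over the 14 constitutive core genes, 11 of the changes were negative, with a median of -0.14.

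None of the 17 genes of the 19S cap passed the threshold. The 6 ATPases, which unfold substrates and open the gate, had log2 changes from -0.05 (Psmc6) to 0.17 (Psmc4), with a median of -0.02, and their groups overlapped in each case. Psmc1 was at 75.1 to 96.1 FPKM in R libraries, against 82.9 to 89.9 FPKM in vehicle libraries, and Psmc4, with the largest change, at 51.3 to 73.4 FPKM in R libraries, against 50.4 to 60.8 FPKM in vehicle libraries (limma, adjusted p = 0.55). The remaining ATPase genes Psmc2, Psmc3 and Psmc5 had log2 changes of -0.05, -0.02 and 0.06.

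Of the 11 non-ATPase genes, 5 had a negative and 6 a positive change, from -0.08 (Psmd1) to 0.10 (Psmd6), with a median of 0.01. Psmd2, a scaffold subunit and the most abundant of the 39 members, had 96.0, 104.2 and 94.8 FPKM in R, against 98.7, 91.0 and 112.6 FPKM in vehicle. Psmd4, a ubiquitin receptor, had a log2 change of 0.09, and Psmd14, the deubiquitinase that frees ubiquitin from substrates, of 0.03. Psmd3, Psmd7, Psmd8, Psmd11, Psmd12 and Psmd13 lay between -0.07 and 0.08. Over all 17 cap genes the 95% intervals ran no lower than -0.36 (Psmd3) and no higher than 0.51 (Psmc4), so a change of the size of the inducible members was outside each of them.

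The groups of the other activators and of the assembly factor did not overlap, with R lower, but none of the 3 genes passed the threshold. Psme3 encodes PA28 gamma, the nuclear relative of the inducible ring, and had 34.5, 33.4 and 33.0 FPKM in R, against 38.7, 34.6 and 35.4 FPKM in vehicle (log2 change -0.10; limma, adjusted p = 0.49). Psme1 over Psme3 was 0.948, 1.02 and 0.751 in R, against 2.15, 2.06 and 1.79 in vehicle. Psme4, which encodes the activator PA200, had 8.69 to 10.5 FPKM in R libraries, against 10.9 to 12.1 FPKM in vehicle libraries, with a log2 change of -0.21 (adjusted p = 0.26). Pomp, the chaperone that matures the core particle, had 22.2, 26.3 and 20.3 FPKM in R, against 29.3, 27.4 and 26.7 FPKM in vehicle, with a log2 change of -0.27 (adjusted p = 0.18).

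Without adjustment, 3 of the 34 other members (Psma4, Psma5 and Pomp) had p under 0.05 in limma, where 24% of all genes tested did. The groups did not overlap, with R lower, in 5 of the 34 (Psma2, Psma5, Psme3, Psme4 and Pomp), and in 0 with R higher. Among all genes tested the shares were 15.5% and 13.9%. The unadjusted count is a smaller share than that of all genes; without overlap, the share with R lower is near that of all genes, and the share with R higher is below it.

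**Figure D3:**
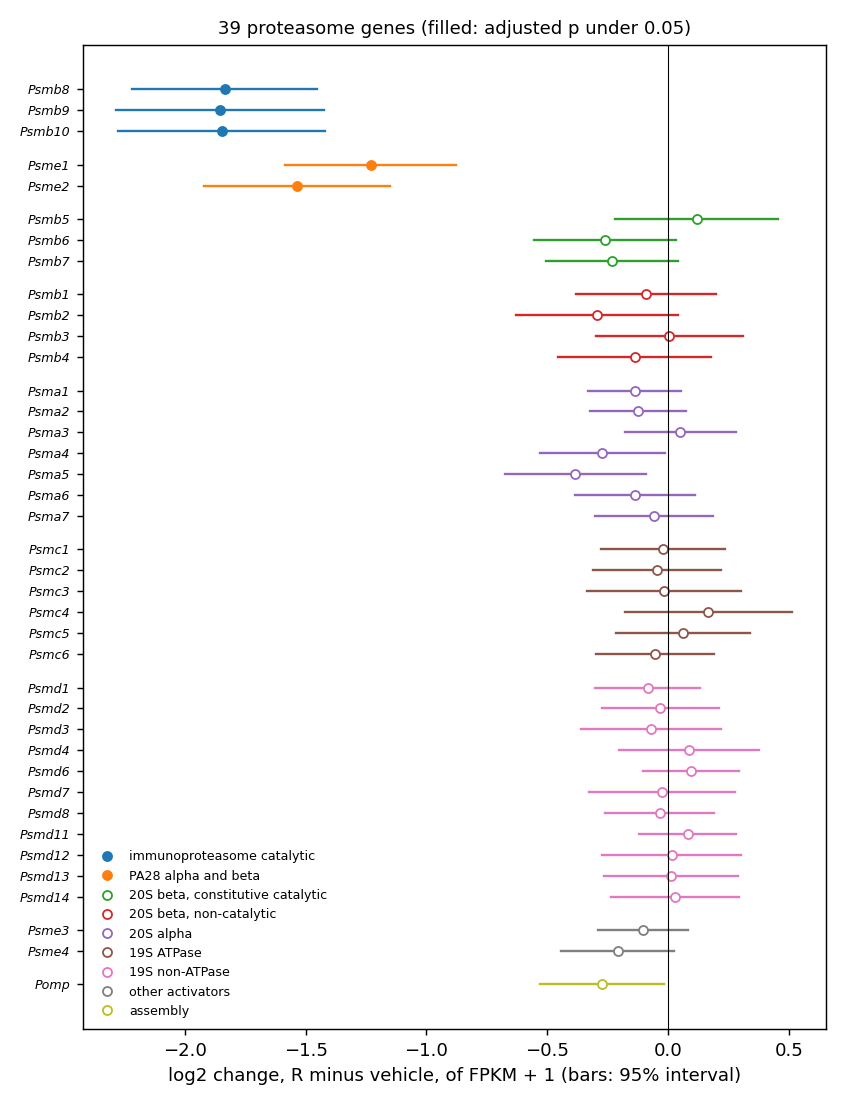
Log2 change of FPKM + 1, R minus vehicle (horizontal axis), with its 95% interval, for the 39 genes grouped by role; filled points passed an adjusted p of 0.05 in limma. The inducible catalytic genes and the PA28 genes Psme1 and Psme2 lie between -1.85 and -1.23, and the 34 others between -0.38 and 0.17.

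The libraries also differed among themselves across the whole complex. Of the 34 other members, 30 were lowest in R replicate 3 among the R libraries and 28 highest in R replicate 2, and their summed FPKM was 1579, 1761 and 1393 in R replicates 1 to 3, against 1618, 1568 and 1764 in vehicle replicates 1 to 3. The 5 inducible members followed the same order within R, all 5 being highest in replicate 2 and lowest in replicate 3. Within vehicle they did not: replicate 3 was highest for 27 of the 34 others and lowest for 4 of the 5 inducible members, and all 5 were highest in replicate 1. The spread within a group was therefore shared between subunits, and members are not independent of each other. The summed FPKM of the 5 inducible members was 103, 114 and 77.7 in R, against 359, 303 and 277 in vehicle.

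**Figure D4:**
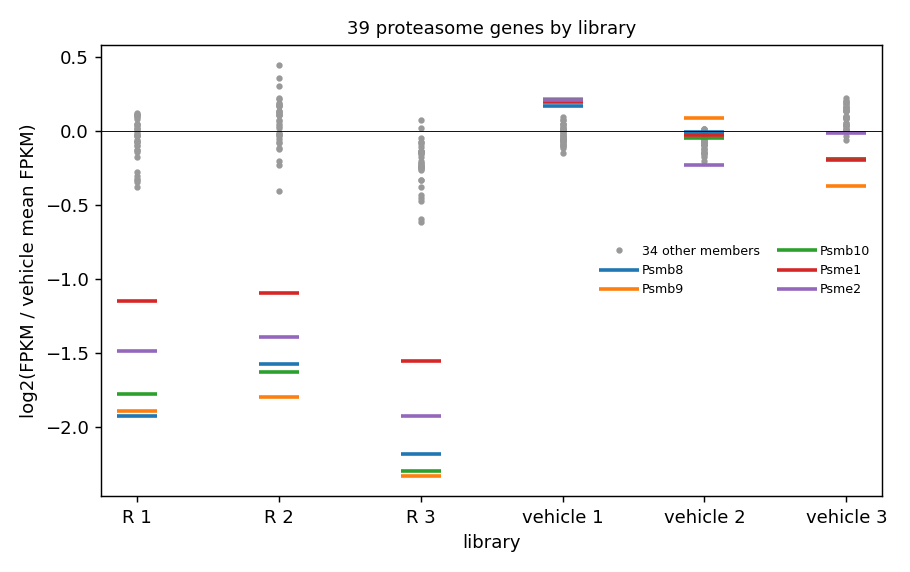
Log2 of FPKM over the vehicle mean of the same gene (vertical axis) in each of the 6 libraries, with the 5 inducible members as coloured dashes and the 34 others as grey points. The dashes of the inducible members lie apart from the grey points in every R library and among or near them in the vehicle libraries; most grey points are lower in R replicate 3 than in R replicates 1 and 2.

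Some markers of macrophages, which carry immunoproteasomes, moved with these genes. Of the 21 macrophage and monocyte markers 5 were lower in R, 0 higher and 16 did not pass, with a median log2 change of -0.48. Of all genes tested, 4.43% were called lower. The groups did not overlap, with R lower, in 14 of the 21, beside 15.5% of all genes tested. The call of Aif1, among the 5, ended in 5 of the 6 fits that left out 1 library (limma, adjusted p = 0.053 to 0.082) and with low genes kept in the fit (0.093). Msr1, a scavenger receptor, averaged 26.5 ± 1.65 FPKM in R and 73.3 ± 9.91 FPKM in vehicle, and Fcgr1, an IgG receptor that interferon-gamma also induces, 7.38 ± 0.73 FPKM in R and 47.3 ± 17.5 FPKM in vehicle (SD, n = 3 each). T and NK cell markers summed to 3.37 to 8.64 FPKM in R libraries, against 8.82 to 16.4 FPKM in vehicle libraries over 16 genes. Klrb1c and Ncr1 were at 0 in all libraries, and 3 genes could be tested. Nkg7 was lower in R, at 0 to 0.24 FPKM, and passed the filter only through its vehicle libraries, at 1.48 to 3.01 FPKM. Trbc2 did not pass the threshold (limma, log2 change -1.02, adjusted p = 0.09). Cd4 changed the other way and did not pass either (limma, log2 change 0.64, adjusted p = 0.24). Endothelial markers summed to 2.19 to 5.26 FPKM over 5 genes in R, against 1.29 to 1.88 FPKM in vehicle. Cdh5, the 1 that could be tested, did not pass (limma, log2 change 0.82, adjusted p = 0.13). It met the filter only through its R libraries, at 1.08 to 3.39 FPKM, against 0.42 to 0.98 FPKM in vehicle libraries, without overlap. Dendritic cell markers summed to at most 0.536 FPKM in any R library and 0.425 FPKM in any vehicle library, with Flt3 and Siglech at 0, and B cell markers, of which 5 of 6 were found by symbol, to at most 4.42 FPKM in R and 4.33 FPKM in vehicle. The part of these markers in the fall of the 5 inducible members was not tested.

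None of the other proteasome genes listed passed the threshold. Of 20 further genes for core, cap, assembly and regulation of the proteasome, 19 were high enough to be tested, with 0 calls and a median log2 change of -0.02. Of these, 3 had an unadjusted p under 0.05 in limma, where 24% of all genes tested did. Psmb11, the subunit specific to the thymus, was listed at 0 in every library. Psmg4, a core assembly chaperone, had 21.95 ± 4.77 FPKM in R and 32.9 ± 1.85 FPKM in vehicle (log2 change -0.58; limma, adjusted p = 0.071; leaving out R replicate 2 gave adjusted p = 0.049). Nfe2l1, the transcription factor that drives the constitutive subunit genes when proteasome activity is short, had 75.2 ± 3.47 FPKM in R and 63.2 ± 2.33 FPKM in vehicle (log2 change 0.25, adjusted p = 0.11), and Uchl5, a deubiquitinase of the cap, had a log2 change of -0.23 (adjusted p = 0.16).

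Genes known to control immunoproteasome transcription were lower in part. Of 9 listed, 4 fell, Irf1, Nlrc5 and Irf2 among them, beside 4.43% of all genes tested that were called lower. Irf1, an interferon-gamma-induced factor known in human cells to act at the shared PSMB9 and TAP1 promoter, averaged 7.12 ± 0.77 FPKM in R and 49.4 ± 11.6 FPKM in vehicle (log2 change -2.61; limma, adjusted p = 0.00049). The call of Irf2 ended in 5 of the 6 fits that left out 1 library (adjusted p up to 0.14). The interferon-gamma receptor genes Ifngr1 and Ifngr2 had log2 changes of -0.18 and 0.05 and did not pass. Of 11 genes of class I peptide loading and trimming, which act on the peptides the proteasome makes, 8 fell, beside the same 4.43%. Among them were Tap1, Tapbp, Tapbpl and Erap1. The endoplasmic reticulum chaperones Calr, Canx and Pdia3 did not pass.

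Several members share bases with neighbouring genes, and the strandedness of the libraries is not given. Exons of 11 of the 39 overlap exons of another gene. For Psmb9 the overlap with Tap1, on the opposite strand, is 212 bases or 5.79% of its exon length, and Tap1 was at 9.71 to 12.99 FPKM in R libraries, against 41.2 to 60.2 FPKM in vehicle libraries, and the part of this overlap in the value of Psmb9 was not tested. Psmb7 shares 11.8% of its exon length with Nek6 (6.57 to 7.11 FPKM in R libraries, against 8.44 to 9.80 FPKM in vehicle libraries), also on the opposite strand, and Psmb8 shares 14.7% with Gm20496, which stayed at or below 0.678 FPKM. Reads from such pairs cannot be told apart without strand. The 5 inducible calls held without each library in turn, with adjusted p from 0.0014 to 0.024 in limma.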

How the data were processed

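The 6 RNA sequencing libraries were grouped by the sample titles, 3 R and 3 vehicle. The authors deposited 1 table of FPKM values, per the file headers, with 49328 complete gene rows and a broken last line that was left out. The submitters' processing notes name the build GRCm38 (mm10) and the tool edgeR 3.18.1, without its role; the sources used here do not name the aligner, counter, annotation or strandedness. Symbols, coordinates and exon lengths came from GENCODE release M21 on GRCm38, and 47 identifiers had no symbol. Of the genes in that annotation, 6169 were not among the 49328 gene rows. Multiplied by exon length, 98.3% to 98.4% of values under 20.5 reads were whole multiples of 1 read within 0.02 reads, which gave the depth; it covers counting error only.

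Genes with FPKM of at least 1 in at least 3 libraries were fitted in limma 3.58.1 (R 4.3.3) on log2(FPKM + 1) with a variance trend and adjusted with the Benjamini-Hochberg method over 11862 genes. Tested on simulated data, the fit recovered large changes, missed most of the smallest ones and made more false calls than its threshold allows. A log2 change is R minus vehicle and understates the change of low genes. Ratios were tested by exact permutation of libraries. Members and lists were chosen with earlier results of these data known. All 39 members are named, and of each other list up to 4 tested genes with the smallest p, some of which are not reported here; Psme2b, Ifngr1, Ifngr2, Calr, Canx, Pdia3, Nek6, Gm20496, Psmb11 and the markers at 0 or under the filter were chosen after their values were seen. Alternatives were other pseudocounts, filters and scalings, no trend, a replicate block and leaving out each library.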

Additional observations from a re-analysis of the deposited data

How the results depend on the processing

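The 5 inducible members were the proteasome genes past the threshold in each of the 14 alternatives, with adjusted p up to 0.027, and 0 of the 34 others passed in any (smallest adjusted p 0.072). The count of all genes past it was 809 (525 lower, 284 higher), or 344 without a filter on low values (279 lower, 65 higher), and 337 to 879 when 1 library was left out (272 to 527 lower, 63 to 352 higher). The ratio differences were -1.95, -1.59 and -1.62 for Psmb8/Psmb5, Psmb9/Psmb6 and Psmb10/Psmb7 in a limma fit of all genes relative to the partner, added after seeing the data. In that fit every gene carries the partner's error, so its p-values are too small and are not used. Over all alternatives the 3 differences ran from -2.17 to -1.91, -1.92 to -1.59 and -1.84 to -1.46. The share of inducible subunits differed by -31.2 to -26.8 percentage points.

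The deviations of same-numbered libraries from their group means correlated at 0.14, -0.01 and -0.03 across genes. Because deviations within a group of 3 cancel, these values could not show whether the libraries were paired. With the replicate block 756 genes passed, the 5 inducible members among them, and the ratio differences were as without it (-2.01, -1.72 and -1.65; exact p = 0.25, the smallest for 3 pairs).

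Log2 changes near 0 turned sign for 18 of the 34 others. With equal medians Psmc1, Psmc3, Psmd2 and Psmd7 had 0.011, 0.016, 0.0014 and 0.0067. When 1 library was left out, the lowest and highest log2 changes were Psma3 -0.0092 to 0.14, Psma7 -0.14 to 0.026, Psmb1 -0.19 to 0.022, Psmb3 -0.080 to 0.11, Psmb5 -0.0024 to 0.24, Psmc1 -0.10 to 0.076, Psmc2 -0.10 to 0.040, Psmc3 -0.10 to 0.091, Psmc5 -0.020 to 0.16. For the others that turned sign they were Psmc6 -0.12 to 0.020, Psmd12 -0.078 to 0.13, Psmd13 -0.088 to 0.094, Psmd14 -0.042 to 0.12, Psmd2 -0.10 to 0.051, Psmd3 -0.17 to 0.011, Psmd4 -0.018 to 0.20, Psmd7 -0.13 to 0.082, Psmd8 -0.086 to 0.050. The B cell marker Ebf1 ran from -0.11 to 0.29. The cause of these sign changes was not tested.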

Other observations

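None of the listed genes that tag proteins for the proteasome passed the threshold. Of 13 ubiquitin, activating-enzyme, segregase and shuttle genes, all tested, 0 passed the threshold in limma. Only 1 had an unadjusted p under 0.05, where 24% of all genes tested did. The median log2 change was 0.04. For the polyubiquitin gene Ubb the groups did not overlap, with R higher: it averaged 532 ± 68.1 FPKM in R and 450.3 ± 8.48 FPKM in vehicle (SD, n = 3 each; log2 change 0.23; limma, adjusted p = 0.28). Ufd1, a cofactor of the segregase VCP, had 14.2 ± 1.11 FPKM in R and 12.3 ± 1.1 FPKM in vehicle (limma, adjusted p = 0.29).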
